A study of Mus musculus with 7 samples.

Results

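The genes described here encode 9 surface proteins by which early mouse blood cells are sorted: Slamf1 (CD150), Cd48, Ly6a (Sca-1), Procr (EPCR), Cd34, Flt3, Kit, Esam and Neo1. They were taken by symbol from the deposited table of 16760 genes, and all 9 were found there. RNA was sequenced from CD150-negative mouse cells, labelled as HSCs (haematopoietic stem cells), of strain C57/B6. The 4 WT samples are compared with 3 samples of genotype 5G2del, in which material of chromosome band 5G2, syntenic to human 7q22, was lost. No treatment is named, and the labels give no age, deletion length, zygosity, sort marker other than CD150, or statement that samples came from separate animals. The p-values therefore measure only the spread from library to library, some of it possibly technical. Columns of the table show the genotype but not the sample, so letters were given within each group, A to C for the 5G2del libraries and A to D for the WT libraries.

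Blood stem cells and the multipotent progenitors below them lack the markers of mature lineages and carry Kit and Sca-1. Among them, mouse stem cells with long-term repopulating activity are CD150-positive, CD48-negative, EPCR-positive, ESAM-positive, low in CD34 and negative for FLT3. CD34 and then FLT3 appear on multipotent progenitors, FLT3 most of all on those with lymphoid bias, and CD48 marks more restricted progenitors. CD150-negative cells with Kit and Sca-1 are thus usually counted as multipotent or restricted progenitors, and neogenin, the product of Neo1, is reported on the most dormant stem cells.

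Depth ran from 37930174 to 52194274 expected counts over the listed genes. CPM are counts scaled to a library size recovered from the deposited values, which is not the depth itself. This size was under the listed counts in 5G2del-C (41220903 against 47664360) and WT-C (34865420 against 42038974), and over them in the other libraries. On this scale 3 counts, taken as the floor, equal 0.0538 to 0.0860 CPM. Library WT-B held 1104 genes at 0 counts, and no other held over 492. Cux1, a gene of band 5G2 that checks the genotype, was lower in each of the 3 5G2del libraries (6.80 to 8.01 log2 CPM) than in any of the 4 WT libraries (8.17 to 8.59). The test, limma-trend over all genes (limma with a mean-variance trend), called 0 of 16760 genes (0%) at a Benjamini-Hochberg adjusted p under 0.05. At an unadjusted p under 0.05 it held 656 genes (3.91%). The authors' deposited table held 0 genes (0%) and 625 genes (3.73%) at these thresholds. The groups did not overlap for 5.70% of genes, 2.92% with 5G2del higher and 2.78% with 5G2del lower.

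The sorted population carried high levels of Ly6a, Flt3, Cd34, Kit and Procr transcripts and low levels of Slamf1 and Neo1. Per kilobase of annotated exon, the mean level over the 7 libraries was 6.33 ± 0.55 log2 CPM per kb for Ly6a (SD, n = 7), 5.40 ± 0.38 for Flt3, 5.36 ± 0.19 for Cd34, 5.00 ± 0.09 for Kit and 4.40 ± 0.26 for Procr. Cd48 followed at 3.76 ± 0.85 and Esam at 1.79 ± 0.38, and Slamf1 and Neo1 were last at -3.01 ± 1.13 and -5.94 ± 2.58. Among all genes with an annotated length, these levels stood at percentile 98.2 for Ly6a, 96.9 for Flt3, 96.8 for Cd34, 95.8 for Kit, 93.5 for Procr, 89.2 for Cd48, 60.3 for Esam and 0.668 for Neo1. Slamf1 ranged from percentile 2.57 to 16.9 within the single libraries.

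Flt3 and Cd34, and Procr and Cd48, were neighbours whose difference was within its spread. The per-length level of Flt3 exceeded that of Cd34 by 0.05 ± 0.33 (SD, n = 7) and was the higher in 4 of 7 libraries. Procr exceeded Cd48 by 0.64 ± 0.95, likewise in 4 of 7. Ly6a exceeded Flt3 by 0.93 ± 0.64, in 6 of 7. For every other step the upper gene was higher in all 7 libraries, by 0.36 ± 0.16 from Cd34 to Kit, 0.60 ± 0.23 from Kit to Procr, 1.97 ± 0.73 from Cd48 to Esam, 4.80 ± 0.79 from Esam to Slamf1 and 2.93 ± 2.72 from Slamf1 to Neo1, a difference hardly larger than its SD. With the longest annotated transcript as the length, Cd34 came before Flt3, at 6.61 against 6.05 log2 CPM per kb, and the order of the other 7 genes was the same.

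**Figure D1:**
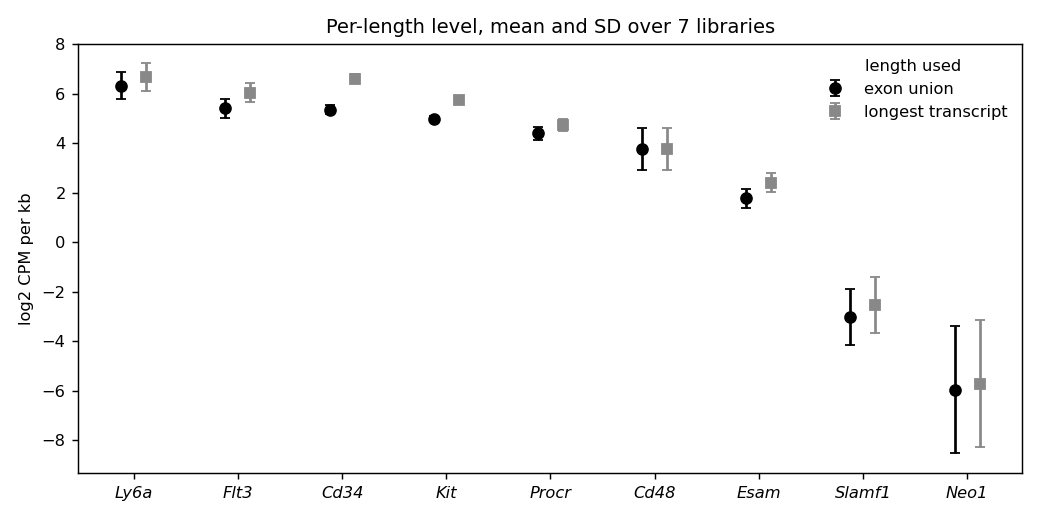
Mean per-length level of each marker gene (log2 CPM per kb), with SD over the 7 libraries, using the exon union (circles) or the longest transcript (squares) as length. Ly6a, Flt3, Cd34, Kit and Procr lie above 4, Slamf1 and Neo1 below -2 by either length.

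Set against the surface code of the labelled cell type, the transcripts thus differed in part. That code is one of proteins, which were not measured, and RNA can be present where surface protein is low or absent. It also describes CD150-positive stem cells, whereas these cells were sorted as CD150-negative. Without a CD150-positive library, the part of the sort in the low Slamf1 RNA was not tested. Kit, Ly6a, Procr and Esam, which stem cells carry, were present. Flt3 and Cd48, which long-term stem cells lack, and Cd34, which is low on them, were present as well, and Flt3 was above Kit per length in 5 of 7 libraries. Slamf1, whose product the sort selected against, was scarce, at 7 to 66 counts, which is over the floor in every library. All 16 genes of a list of stem cell regulators were measured, over a wide range of per-length levels, from -1.61 log2 CPM per kb for Hoxb5 through a median of 2.78 to 6.44 for Hlf. Hlf, a transcription factor of stem cells, averaged 9.11 ± 0.16 log2 CPM among the 3 5G2del libraries and 9.24 ± 0.25 among the 4 WT libraries (SD).

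None of the 9 members passed the adjusted threshold between genotypes (limma adjusted p = 0.989 for each). At an unadjusted p under 0.05 were 2 of them, Cd48 and Esam, both higher in 5G2del, where 1.68% of all genes were higher and 2.24% lower. Groups did not overlap for 2 members, Slamf1 and Esam, both higher, where 2.92% of all genes had no overlap with 5G2del higher. In all, 6 members had higher and 3 had lower means in 5G2del, against 8925 higher and 7835 lower of all 16760 genes. The median log2 fold change of the members was 0.13, and that of all genes 0.03. The same shares of all genes stand beside the list counts below. In bulk RNA, fewer cells of a type and less RNA per cell cannot be told apart. Exact permutation over the 35 splits of 7 libraries, used below for single genes, cannot give a two-sided p under 0.0286.

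**Figure D2:**
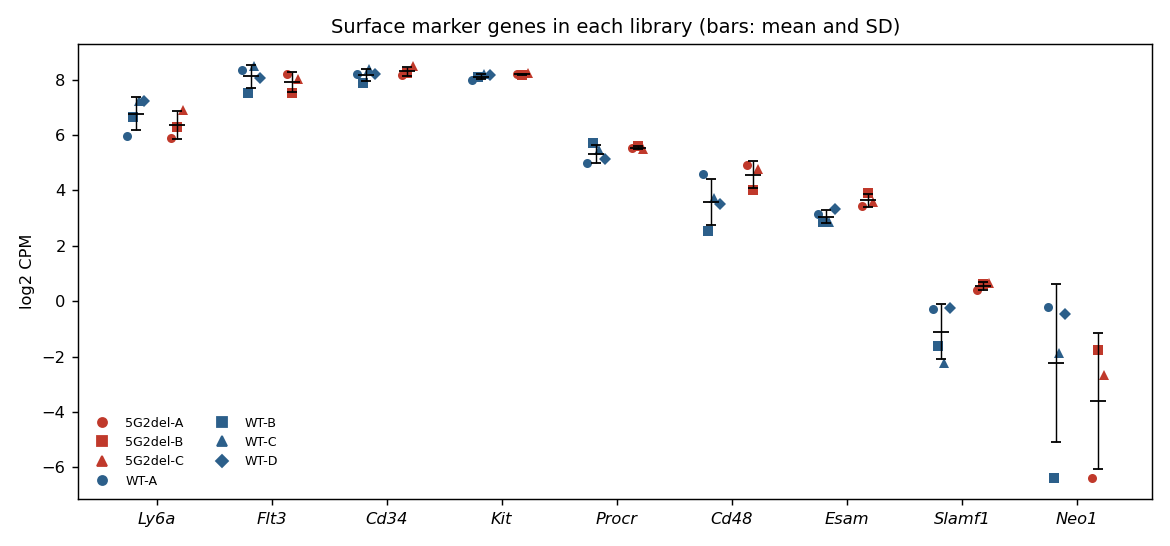
Log2 CPM of each marker gene in each library, WT in blue and 5G2del in red, with mean and SD per group; genes are in order of per-length level. Groups are separate for Slamf1 and Esam, and Neo1 sits at 0 counts in WT-B and 5G2del-A.

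Slamf1 and Cd48 are neighbours on mm10 chromosome 1, Cd48 at 171682009 to 171705258 and Slamf1 at 171767127 to 171801184, on the same strand and 0.0619 Mb apart in a cluster of SLAM family receptors. The bases just before the start of both genes are shown because the pair had the largest positive fold changes among the members, and those of Cd34 and Flt3 because they were among the most abundant. Each run covers bases -250 to -11 from the RefSeq start on build GRCm38.p6, which 7 of the 9 members have in the table used. They lie at chr1:171766882-171767121 (Slamf1, plus strand), chr1:171681742-171681981 (Cd48, plus strand), chr1:194938571-194938810 (Cd34, plus strand) and chr5:147400500-147400739 (Flt3, minus strand). Capitals mark matches, on either strand, to GATAA (GATA factors), TGTGGT (RUNX factors) or AGGAAG (ETS factors).
Slamf1: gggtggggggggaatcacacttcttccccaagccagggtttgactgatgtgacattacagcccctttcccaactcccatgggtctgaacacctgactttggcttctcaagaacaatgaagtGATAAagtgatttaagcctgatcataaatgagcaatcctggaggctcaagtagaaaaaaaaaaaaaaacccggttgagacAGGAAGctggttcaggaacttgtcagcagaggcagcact
Cd48: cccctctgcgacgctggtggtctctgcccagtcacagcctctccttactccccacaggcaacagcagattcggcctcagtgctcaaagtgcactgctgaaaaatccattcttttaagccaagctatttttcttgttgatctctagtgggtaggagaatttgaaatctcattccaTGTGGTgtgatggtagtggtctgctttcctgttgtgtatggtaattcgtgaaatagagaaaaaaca
Cd34: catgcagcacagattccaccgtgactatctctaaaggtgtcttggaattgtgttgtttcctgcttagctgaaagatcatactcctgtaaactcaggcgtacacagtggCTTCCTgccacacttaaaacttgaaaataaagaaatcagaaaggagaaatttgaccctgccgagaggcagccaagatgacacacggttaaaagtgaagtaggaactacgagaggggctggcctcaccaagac
Flt3: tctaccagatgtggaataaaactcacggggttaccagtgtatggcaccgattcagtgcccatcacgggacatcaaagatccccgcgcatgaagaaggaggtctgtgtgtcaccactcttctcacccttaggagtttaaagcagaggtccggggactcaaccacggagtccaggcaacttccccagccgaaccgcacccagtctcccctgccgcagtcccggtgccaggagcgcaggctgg

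The Slamf1 window holds GATAA at -129 and AGGAAG at -49, the Cd48 window TGTGGT at -76, and the Cd34 window AGGAAG on the other strand at -142. The Flt3 window holds no match to these letters. Over 27025 gene windows of the same length, 22.5% hold GATAA, 13.7% TGTGGT and 28.0% AGGAAG on either strand, so such matches are common and describe letters only.

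Slamf1, the co-stimulatory receptor that the sort selected against, was the scarcest member after Neo1. It had 55, 66 and 64 counts in 5G2del libraries A, B and C, and 45, 13, 7 and 40 counts in WT libraries A, B, C and D. In log2 CPM these are 0.40, 0.63 and 0.65 in 5G2del and -0.29, -1.62, -2.22 and -0.26 in WT. The 3 5G2del libraries were alike and lay over all WT libraries, which formed a higher pair and a lower pair. Even 5G2del-C, the highest, had only 1.55 CPM (exact Poisson 95% interval 1.20 to 1.98, counting error only), against 0.201 CPM (0.0807 to 0.414) in WT-C. The intervals of 5G2del-A (0.985 to 1.70) and WT-D (0.589 to 1.12) overlapped. The log2 fold change was 1.66 ± 0.75 (SE; 95% confidence interval -0.0030 to 3.32), which missed the threshold even unadjusted (limma unadjusted p = 0.0504; exact permutation p = 0.0857). With 1 library left out it ran from 1.28 (without WT-C) to 1.94 (without WT-D). Protein was the sort criterion and was not measured here.

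Cd48, a GPI-anchored ligand of the receptor CD244 found on most leukocytes, measured 4.94, 4.01 and 4.79 log2 CPM in 5G2del libraries A, B and C. In WT libraries A to D it measured 4.58, 2.52, 3.72 and 3.53. WT-A lay among the 5G2del libraries and WT-B far under all others, so the groups overlapped. The log2 fold change was 0.99 ± 0.42 (95% confidence interval 0.07 to 1.91; limma unadjusted p = 0.0372; exact permutation p = 0.143). With 1 library left out the log2 fold change ran from 0.64 (without WT-B) to 1.32 (without WT-A), and the limma unadjusted p from 0.0041 (without WT-A) to 0.130 (without 5G2del-A). That p was over 0.05 without 5G2del-A or 5G2del-C and without WT-B, WT-C or WT-D, each left out singly, in limma without the trend (unadjusted p = 0.0940), and with mitochondrial rRNA left out of the library size (unadjusted p = 0.0658). Cd48 was also variable for its level: of the 300 genes nearest in mean log2 CPM, 2% had a larger residual SD. Within each library Cd48 outweighed Slamf1 per length by between 5.75 (5G2del-B) and 8.31 (WT-C) on the log2 scale, with a mean difference of 6.39 ± 0.59 in 5G2del and 7.06 ± 0.95 in WT.

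Of 9 listed SLAM family genes, 7 were measured. Of the 5 besides Slamf1 and Cd48, 4 had lower means in 5G2del and 1, Cd244a, had a higher mean, and 0 had an unadjusted p under 0.05 (limma). Cd84, a self-binding family member, had a log2 fold change of -0.24 ± 0.18, and Slamf8 had 0 to 33 counts. Cd244a, which encodes the receptor for CD48 and was singled out after its values were seen, was between 2.17 and 2.76 log2 CPM in 5G2del and between 2.67 and 3.15 in 3 WT libraries, and at 0 counts in WT-B, so its higher mean in 5G2del rests on WT-B. WT-B therefore was lowest for both Cd48 and Cd244a, whereas for Ly9, singled out in the same way, it was the highest at 5.23 against 4.10 to 4.23. On chromosome 1 the annotated span of Ly9 (171588624 to 171607410) lies within that of Cd244a (171559193 to 171609746). Shared exon bases were not examined for this pair, so the values of Cd244a and Ly9 may not be independent.

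**Figure D3:**
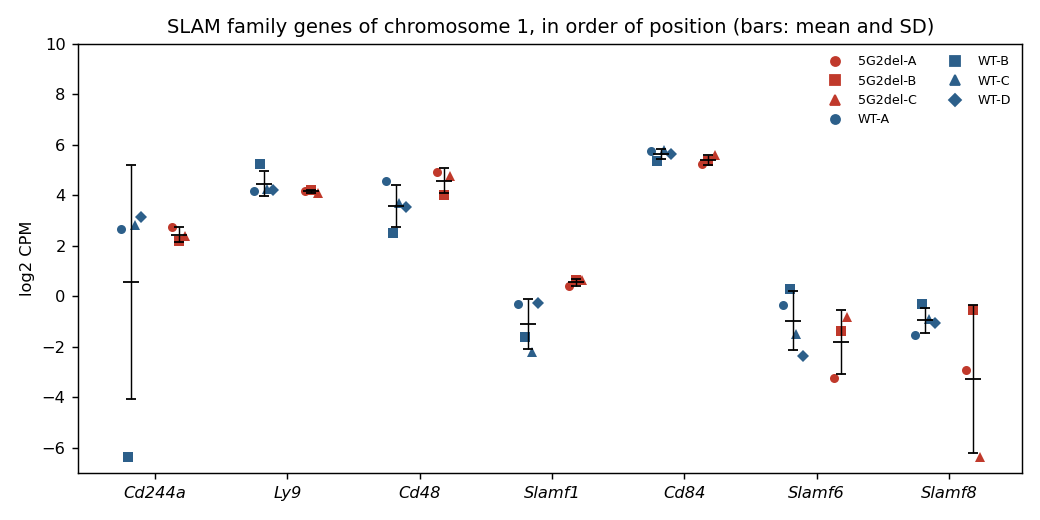
Log2 CPM of the 7 measured SLAM family genes in the order of their position on chromosome 1, by library (WT blue, 5G2del red; mean and SD per group). Slamf1 is the family gene whose groups are separate, and Cd244a is at 0 counts in WT-B.

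Kit and Flt3 are the receptor tyrosine kinases for stem cell factor and FLT3 ligand. Both lie on chromosome 5, Kit at 75574916 to 75656722 and Flt3 at 147330741 to 147400489, which is 60.6 Mb and 10.8 Mb from Cux1. Kit measured 8.19, 8.18 and 8.23 log2 CPM in 5G2del and 7.98, 8.09, 8.22 and 8.17 in WT. It was the steadiest member, with a log2 fold change of 0.09 ± 0.13 and a 95% confidence interval from -0.21 to 0.38 (limma unadjusted p = 0.527; exact permutation p = 0.257). Of the 300 genes nearest in level, 97.3% had a larger residual SD. The sign of Kit turned when mitochondrial rRNA was left out of the library size (-0.0055).

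Flt3 measured 8.21, 7.51 and 8.02 log2 CPM in 5G2del libraries A, B and C, and 8.37, 7.54, 8.50 and 8.07 in WT libraries A, B, C and D. Each group held 1 low library, 5G2del-B and WT-B, and the other libraries overlapped. The log2 fold change was -0.20 ± 0.24 (95% confidence interval -0.74 to 0.33; limma unadjusted p = 0.419; exact permutation p = 0.486), with -0.0016 without 5G2del-B and -0.40 without WT-B. Per length and within a library, Flt3 stood over Kit by 0.24 ± 0.35 on the log2 scale among the 3 5G2del libraries and by 0.53 ± 0.42 among the 4 WT libraries (SD).

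The libraries low in Flt3 were also low in lymphoid priming genes, a list of 12 that does not hold Flt3. Its mean log2 CPM was 3.14 in 5G2del-B and 2.63 in WT-B, against 3.77 to 5.01 in the other 5 libraries. Dntt, the terminal transferase of lymphoid progenitors, was at 3.74 in 5G2del-B and 3.44 in WT-B, and between 6.07 and 7.32 elsewhere. Of the 12 genes 11 had lower means in 5G2del (median log2 fold change -0.23), and 0 had an unadjusted p under 0.05 (limma). That median rests on single libraries: with 1 left out it ran from -0.51 (without 5G2del-A) to 0.01 (without 5G2del-B), where its sign turned. Stem cell regulators went the other way in WT-B, with the highest list mean, 5.50 log2 CPM against 4.78 to 5.22. The part of these lists in the Flt3 values was not tested.

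Ly6a encodes Sca-1, a GPI-anchored protein of the Ly6 family that interferons induce in mouse cells. It measured 5.91, 6.28 and 6.89 log2 CPM in 5G2del libraries A, B and C, and 5.99, 6.65, 7.25 and 7.22 in WT libraries A, B, C and D. Values spread widely within both groups and overlapped. The log2 fold change was -0.42 ± 0.31 (95% confidence interval -1.11 to 0.28; limma unadjusted p = 0.213; exact permutation p = 0.314), and it ran from -0.68 without 5G2del-C or WT-A to -0.19 without 5G2del-A. Without WT-A its limma unadjusted p was 0.0218. Only 3% of the 300 genes nearest in level had a larger residual SD. Other Ly6 genes share sequence with Ly6a, which can make the division of reads among them uncertain. The recovered Ly6a counts were whole numbers in every library but 5G2del-A (2535.99). Of 11 listed family genes 4 were measured, 2 with higher and 2 with lower means, and Ly6e, the most abundant of them per length, had a log2 fold change of -0.14 ± 0.16.

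Ly6a and the interferon response list shared their 2 highest libraries, WT-C and WT-D. The mean over the list was 4.69 log2 CPM in WT-C, 4.37 in WT-D and 3.78 in 5G2del-C, and between 3.21 and 3.64 in the other 4 libraries. All 20 listed genes were measured. Of these, 19 had lower means in 5G2del, including 7 at an unadjusted p under 0.05 (limma), where 2.24% of all genes were lower. The median log2 fold change was -0.57, and 0 passed the adjusted threshold (limma). Ifi44, an interferon-induced protein, had the smallest p of the list, with a log2 fold change of -1.11 ± 0.26. The list was known from earlier results of these data to lie lower in 5G2del, and its part in the Ly6a values was not tested.

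Cd34 encodes a sialomucin that is low on the most primitive mouse stem cells and rises on multipotent progenitors. It measured 8.18, 8.23 and 8.48 log2 CPM in 5G2del and 8.20, 7.88, 8.39 and 8.21 in WT libraries A to D, with WT-B lowest and 5G2del-C highest. The groups overlapped, with a log2 fold change of 0.13 ± 0.16 (95% confidence interval -0.23 to 0.48; limma unadjusted p = 0.440; exact permutation p = 0.400), and of 0.03 without WT-B, 0.04 without 5G2del-C and 0.20 without WT-C. An antisense gene, Gm16897, shares 148 exon bases with Cd34, and since strand is not stated their reads cannot be told apart there.

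Procr, the endothelial protein C receptor, measured 5.54, 5.61 and 5.49 log2 CPM in 5G2del, and 5.00, 5.70, 5.46 and 5.14 in WT libraries A, B, C and D. The 5G2del libraries fell within the WT range. The log2 fold change was 0.22 ± 0.20 (95% confidence interval -0.21 to 0.65; limma unadjusted p = 0.281; exact permutation p = 0.343), with 0.11 without WT-A and 0.35 without WT-B.

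Esam, an adhesion molecule of endothelium, platelets and stem cells, measured 3.45, 3.91 and 3.57 log2 CPM in 5G2del libraries A, B and C. In WT libraries A to D it measured 3.16, 2.88, 2.84 and 3.33. All 5G2del values were over all WT values, the closest being 5G2del-A and WT-D. The log2 fold change was 0.59 ± 0.26, or 1.51-fold (95% confidence interval 1.02 to 2.24; limma unadjusted p = 0.0428; exact permutation p = 0.0571). The limma unadjusted p stayed under 0.05 without 5G2del-A or WT-D and was over 0.05 without any other library, up to 0.173 without 5G2del-B, where the log2 fold change was 0.46. It was 0.55 with quantile normalization (limma unadjusted p = 0.0664) and 0.50 with mitochondrial rRNA left out of the library size (limma unadjusted p = 0.0807), and the filter at a mean log2 CPM over 2 gave a limma unadjusted p of 0.0508. Of the 300 genes nearest in level, 92.3% had a larger residual SD.

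Genes of cells that also carry ESAM were examined beside it. Megakaryocyte and platelet genes had 10 of 12 members measured, with summed levels of 309 to 386 CPM in 5G2del and 223 to 415 CPM in WT. Of the 10, 7 had higher means in 5G2del, 2 of them with an unadjusted p under 0.05: Itga2b, an integrin of that lineage, at a log2 fold change of 0.93 ± 0.40, and Treml1, a platelet receptor with at most 86 counts in any library. The other 3 had lower means, among them Itgb3, also an integrin, at -0.73 ± 0.42. The median log2 fold change of the list was 0.12. Endothelial and stromal genes had 8 of 12 measured, with summed levels of 77.4 to 114 CPM in 5G2del and 79.7 to 118 CPM in WT, and 0 with an unadjusted p under 0.05 (limma). Levels differed within this list. Pecam1, the most abundant per length, had 980 to 2272 counts and Pdgfrb 47 to 1058, whereas Cxcl12 was at 0 counts in 5G2del-A and WT-A and at most 140 in any library. Their part in the Esam values was not tested.

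Neo1 encodes neogenin, a receptor for netrins and repulsive guidance molecules. It had 0, 12 and 6 counts in 5G2del libraries A, B and C, and 48, 0, 9 and 35 counts in WT libraries A, B, C and D. The 0 counts allow up to 0.0713 CPM in 5G2del-A and 0.0723 CPM in WT-B, a floor for counting error only. A difference was not detectable at this depth (limma unadjusted p = 0.463; exact permutation p = 0.486), and the fitted log2 fold change of -1.39 ± 1.83 became 0.0027 without 5G2del-A. Ntn1, which encodes its ligand netrin-1, was also scarce, at 0 counts in 2 of 3 5G2del libraries and at most 48 counts in any library.

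**Figure D4:**
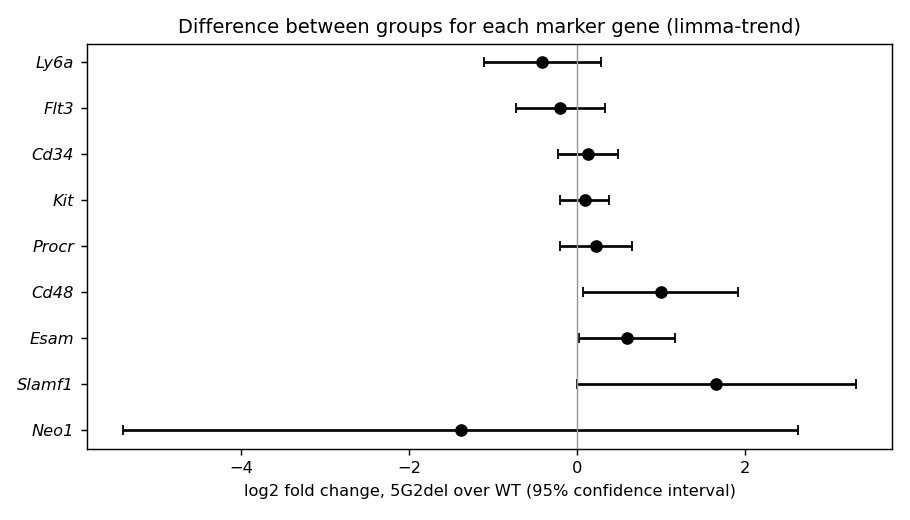
Log2 fold change of each marker gene, 5G2del over WT, from limma-trend, with its 95% confidence interval. The intervals of Cd48 and Esam lie just above 0, that of Slamf1 reaches -0.0030, that of Kit is the narrowest, and that of Neo1 spans -5.40 to 2.63.

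Signalling partners were tested as a further list. Of 16 ligands, co-receptors and adaptors 11 were measured, 4 with higher and 7 with lower means in 5G2del, and 1 had an unadjusted p under 0.05, Ntn1. Crkl, an adaptor downstream of Kit, had a log2 fold change of 0.29 ± 0.18 and Cbl, the ubiquitin ligase that limits Kit and FLT3 signalling, of -0.19 ± 0.18. Among 21 measured of 22 other surface genes used on stem cells, 0 had an unadjusted p under 0.05 (limma), with 9 higher and 12 lower means and a median of -0.05 (-0.12 to -0.01 with 1 library left out). Adgrg1, an adhesion receptor of stem cells, was at -0.01 ± 0.16, and Cd9, a tetraspanin of stem cells and megakaryocytes, at 0.38 ± 0.22 without overlap of the groups. Stem cell regulators had 3 higher and 13 lower means (median -0.14), 1 with an unadjusted p under 0.05, Ctnnal1, an alpha-catulin used as a stem cell reporter gene, at 0.84 ± 0.33.

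Markers of committed and mature cells varied from library to library. Neutrophil granule genes, 7 of 10 measured, all had higher means in 5G2del, with 0 at an unadjusted p under 0.05 (limma). They summed to 1358 CPM in 5G2del-A and 363 CPM in WT-A, against 14.5 and 20.4 CPM in the other 5G2del libraries and 3.91 to 8.56 CPM in the other WT libraries. Lcn2 and Ltf, which encode granule proteins, were at 0 counts in WT-B. These 2 libraries with high sums were also the highest of their group for Cd48, at 4.94 and 4.58 log2 CPM, and the lowest of their group for Ly6a. Cd48 in 5G2del-C was nearly as high, at 4.79, with the lowest sum of its group. Committed progenitor surface genes, 13 of 14 measured, summed to 132 to 327 CPM in 5G2del and 131 to 274 CPM in WT. Their 2 genes with an unadjusted p under 0.05 were Il5ra and Itga2b, both higher in 5G2del.

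Erythroid genes, 11 of 12 measured and all with lower means in 5G2del, summed to 39.5 to 104 CPM in 5G2del and 78.6 to 286 CPM in WT, with 0 at an unadjusted p under 0.05 (limma). B and plasma cell genes, 5 of 8 measured and all with higher means in 5G2del, summed to 59.9 to 568 CPM in 5G2del and 33.5 to 136 CPM in WT. Of these, Igkc and Jchain were at an unadjusted p under 0.05 (limma). Of 15 genes of the usual lineage cocktail 7 were measured, with summed levels of 17.4 to 67.2 CPM in 5G2del and 37.9 to 53.3 CPM in WT; Itgam, the integrin CD11b, was the most abundant per length and averaged 5.00 ± 1.16 log2 CPM over the 5G2del libraries and 5.02 ± 0.42 over the WT libraries. The part of these cells in the Cd48, Slamf1 and Ly6a values was not tested.

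**Figure D5:**
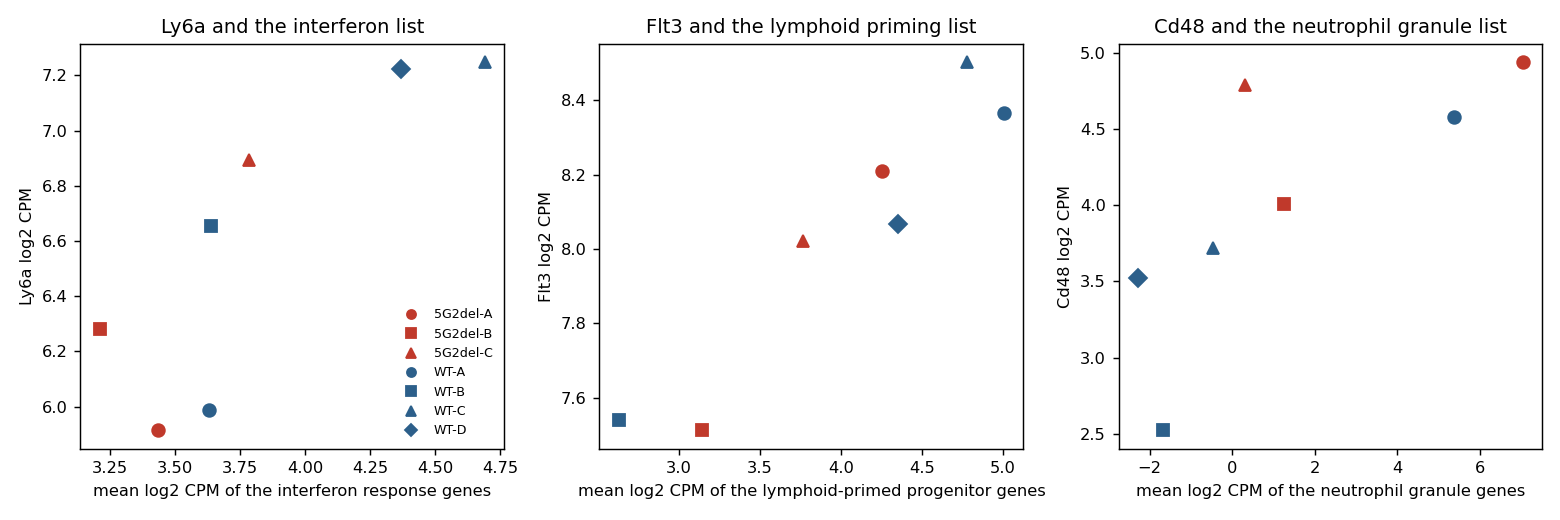
Log2 CPM of Ly6a, Flt3 and Cd48 in each library against the mean log2 CPM of the interferon, lymphoid priming and neutrophil granule lists (WT blue, 5G2del red; 1 symbol per library). Ly6a is highest in WT-C and WT-D, Flt3 lowest in WT-B and 5G2del-B, and Cd48 highest in 5G2del-A.

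Among the 3 genes whose pattern over the 7 libraries was most like that of Slamf1, out of 12847 genes with a mean log2 CPM over 0, were Gm45807 (r = 0.986) and Cdk2 (0.966), a kinase of S phase entry. For Cd48 the 3 were Cenpn (r = 0.991), a centromere protein, Rhbdd1 (0.986), a rhomboid protease, and Phka2 (0.978), a phosphorylase kinase subunit. These Pearson coefficients over 7 libraries are a description; 37 genes had r over 0.9 with Slamf1 and 95 with Cd48.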

How the data were processed

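RNA from 4 WT and 3 5G2del samples was amplified with a Tecan Ovation kit and read as paired ends, per the labels' protocols. The authors deposited log2 CPM for 16760 genes beside their own log2 fold changes, t and B scores, p-values and q-values. STAR 2.7.9a, RSEM 1.3.0, limma 3.50.3, mm10 and GRCh38 are named in the submitters' processing notes; annotation, filter and scaling: not given in the sources used here. Expected counts were recovered from the deposited log2 CPM (offset of 0.5 count); 69.8% to 73.2% were whole within 0.01, so no count model was run. A voom fit on them matched the authors' log2 fold changes to 1.37e-08. Libraries were not copies: chi-square over df was 65.7 or more for each pair.

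Limma 3.58.1 (R 4.3.3) with a trend was fitted to the log2 CPM of all genes and checked on simulated data, with Benjamini-Hochberg adjustment over all genes; single genes also had two-sided exact permutation tests. Lengths (exon union) and positions came from GENCODE M21 on mm10, with no length for 5 genes, and promoters from RefSeq (GRCm38.p6). RSEM splits reads between similar genes, which makes paralog levels uncertain. The members and the 14 lists were chosen with earlier results of these data known. Named beside the members were, per list, up to 4 genes of smallest p, the most abundant per length and defining markers near 0 counts, and the 3 genes most alike to Slamf1 and Cd48; exceptions are stated, and some genes the rule names are not reported here. Alternatives were limma without the trend, voom, an offset of 2 counts, quantile normalization, library sizes without mitochondrial rRNA, a filter at a mean log2 CPM over 2, the longest transcript as length, and each library left out.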

Additional observations from a re-analysis of the deposited data

Results flagged for a closer look

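Among 23 groups of 4 WT values examined (9 genes and 14 list means), 1 had a library far from the rest: the mean of the megakaryocyte and platelet genes in WT-D, at 1.37 log2 CPM against 1.71 to 1.78 in the other WT libraries. Chance gives about 5% of such groups. No WT value of the 9 marker genes themselves stood apart by this measure, and groups of 3 were not examined.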

How the results depend on the processing

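Over 115 member fold changes under 13 alternatives, 113 kept their direction and missed the adjusted threshold as before (lowest limma adjusted p = 0.833), and 2 turned: Kit to -0.0055 with mitochondrial rRNA left out of the library size, and Neo1 to 0.0027 without 5G2del-A (-2.77 to 0.0027 with 1 library left out). Genes called over the whole table numbered 1 rather than 0 in limma without the trend, and 0 to 1 with 1 library left out; neither call was a member. Members at an unadjusted p under 0.05 numbered 0 (mitochondrial rRNA left out, or without 5G2del-C, WT-B or WT-C) to 3 (offset of 2 counts, or without WT-A), against 2, and the cause was not tested. Mitochondrial rRNA made up 22.9% to 27.8% of the listed counts in 5G2del and 25.3% to 33.4% in WT. Leaving it out of the library size lowered every log2 fold change by the same amount, by construction. The median of all genes was then -0.06 rather than 0.03. Genes at an unadjusted p under 0.05 ran from 420 (mean log2 CPM over 2, which tests fewer genes) to 980 (without WT-B), against 656. Slamf1 had a limma unadjusted p under 0.05 without the trend (0.0183), with an offset of 2 counts (0.0448), without WT-A (0.0432) and without WT-D (0.0396), and the filter at a mean log2 CPM over 2 gave no value for Slamf1 and Neo1. Per-length levels moved by more than their SD with the longest transcript, by construction, to 4.73 for Procr, 6.61 for Cd34, 6.05 for Flt3, 5.76 for Kit and 2.41 for Esam. With mitochondrial rRNA left out of the library size, every gene rose by the same amount, also by construction. Only genes of small SD therefore moved beyond it, the same ones, to 4.86, 5.82, 5.87, 5.46 and 2.25. The list medians that moved beyond their spread were the Ly6 family without 5G2del-C (-0.24), megakaryocyte genes without 5G2del-A (0.56) and B cell genes without 5G2del-B (4.59). No paired analysis was possible because the columns carry the genotype and no replicate number of the labels. Low counts limit Slamf1, at 7 to 66, and Neo1, at 0 to 48, and so does the spread of these genes among the WT libraries.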
